A study of Homo sapiens with 12 samples.

Results

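A set of 10 genes was picked for rises with 1 or both of the siRNAs aimed at long NFYA transcripts. The set was followed across every group of an RNA-seq experiment in HCT116 cells, an established human colon cancer line. Its genes are CEACAM1, FBLIM1, RUNX2, ABCA12, COL17A1, KLK10, GRIN2C, PAQR8, NLRP4 and SCG2, 10 of the 63677 genes listed in the count table. They were selected on their read counts, which were high in the siLong groups or in 1 of the 2, so their levels in those groups are given as a description and without a test. All 10 passed the filter on low counts, which left 17730 genes for testing.

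The experiment asked what happens to the transcriptome when NFYA, a subunit of the transcription factor NF-Y, is targeted by siRNA. There were 12 libraries, 2 in each of 6 groups. Mock cells received the transfection reagent Lipofectamine 2000 and no siRNA, and siControl cells received a siGENOME siRNA that targets no gene. Cells of siTotal1 and siTotal2 received an siRNA against all NFYA transcripts, and cells of siLong1 and siLong2 one against only those NFYA transcripts whose 3′ UTR is the longest annotated by RefSeq. Each siRNA was used at 62.5 nM on 25000 cells per well and RNA was taken 72 h later. All groups were the same line, and the 2 libraries of a group were described as biological duplicates, so p-values measure the spread between such duplicates.

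NF-Y is a trimer of NFYA, NFYB and NFYC that binds the CCAAT box, a short promoter element common in genes of the cell cycle and of metabolism. An siRNA is loaded into the Argonaute complex, where its antisense strand pairs with a target transcript, and pairing through the seed alone can also lower transcripts that were not intended. The 10 genes have unlike roles. CEACAM1, FBLIM1 and COL17A1 act in cell adhesion, RUNX2 is a transcription factor, ABCA12 and KLK10 belong to lipid transport and secreted proteases, GRIN2C and PAQR8 are receptor proteins of the membrane, NLRP4 belongs to the NOD-like receptor family and SCG2 is a secretory granule protein.

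The siRNAs are shown because they are what sets the groups apart. These are the sense strands, 5′ to 3′, with bases 12 to 18 in capitals, the stretch whose complement is the seed (bases 2 to 8) of the antisense strand. Which strand carries number 1 and which number 2 was not stated, so they stand in the order of the labels.
siTotal, first listed: acuagaggcagAAGGGAAa
siTotal, second listed: uggugaaggugGACGAUUu
siLong, first listed: agugaucauugUAGGGUAa
siLong, second listed: ggucauuccuuUAGCAUCa
The DNA words of the siLong capitals, TAGGGTA and TAGCATC, were found in the GENCODE 29 protein-coding transcripts of 0 of the 10 genes. Over the 13242 tested genes searched, 8.16% held the first and 13.8% the second. The first siTotal word, AAGGGAA, was in transcripts of 5 of the 10 (RUNX2, ABCA12, KLK10, PAQR8 and SCG2) against 38.4% of genes, and PAQR8 held up to 2 copies in a transcript. The second, GACGATT, was in ABCA12 alone among the 10, against 5.07% of genes. The full siTotal strands matched transcripts of NFYA alone, and for the siLong strands no full match was found in the transcripts searched. These matches describe letters and not bound sites.

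Promoter sequence from RefSeq (GRCh38.p14, 250 bases before to 50 after each start) was matched for 7 of the 10 genes, in 12 windows. The letters CCAAT, read on both strands, were present in 3 of the 12 windows, compared with 34.6% of all 35116 windows. The matches are shown because CCAAT is the element NF-Y binds, with the 5 letters in capitals and the gene's own strand printed.
NLRP4, plus strand, chr19:55836449-55836477: aagccctctgagCCAATggcaagggagca
NLRP4, plus strand, chr19:55836475-55836503: gcaattcgttggCCAATcaaatggcacca
NLRP4, plus strand, chr19:55836519-55836547: cgcttccagccgCCAATcattaaggacca
COL17A1, minus strand, chr10:104085965-104085993: aagtgtcagataATTGGaagggtggagta
ABCA12, minus strand, chr2:215032246-215032274: cataagactaaaATTGGcttcatttgatt
NLRP4 held 3 copies in 1 window, while COL17A1 and ABCA12 held 1 each in the reverse orientation. TGTGGT, the core letters bound by RUNX factors, occurred in windows of CEACAM1, RUNX2 and KLK10, against 13.1% of all windows. The RUNX2 window held 4 matches, all on the opposite strand, where TGTGGT reads ACCACA on the gene's own strand. The pair upstream of the start is printed, with ACCACA in capitals, and the other two lie just after the start.
RUNX2, plus strand, chr6:45328127-45328156: aggaaaggccttACCACAagccttttgtga
RUNX2, plus strand, chr6:45328231-45328260: gtgaggtcacaaACCACAtgattctgcctc

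The libraries held 35604197 to 49746637 counted reads, with the mock libraries the deepest. Levels below are counts-per-million values (CPM) unless stated. For these a gene's reads were scaled to the library's reads in the tested genes, adjusted by the TMM factor of edgeR. NFYA itself was 55.2 and 59.1 CPM in mock and 57.4 and 57.5 in siControl. It was 47.9 and 46.8 in siTotal1, 46.0 and 46.2 in siTotal2 and 47.7 and 46.5 in siLong1, each below all 4 control libraries, and the change from mock was -0.27, -0.31 and -0.28 on the log2 scale (edgeR adjusted p = 2.6e-05, 8.2e-06 and 1.1e-05). In the 2 libraries labelled siLong2 it was 69.7 and 70.1, above all 4 (0.29 from mock, adjusted p = 3.3e-06), which goes against a knockdown of total NFYA RNA. They are called the libraries labelled siLong2, and no direction below is tied to lower NFYA in them. The share of mitochondrial reads was 3.83% to 4.98% in mock, siControl and siTotal1, 5.45% to 5.77% in siTotal2 and siLong1, and 6.58% to 6.60% in the libraries labelled siLong2. Summed markers of colon epithelium reached 4958 to 5446 CPM in the siLong groups and 3264 to 3755 in the others, led by KRT8. CDX1, another of the 12, was at 0 reads in mock, siControl and siLong1. Fibroblast markers summed to 26.4 to 46.8 CPM over all groups and blood markers to 0.915 to 1.93. The part of these in the results was not tested, and in bulk RNA fewer cells of a type and less RNA per cell cannot be told apart.

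Of the 10 genes, 7 were at least 2-fold higher in both siLong groups than in both control groups: CEACAM1, FBLIM1, RUNX2, ABCA12, COL17A1, KLK10 and GRIN2C. Of all 17730 tested genes, 128 (0.722%) met that bound, and since the 10 were picked for these rises nothing is read from the contrast. At 1.5-fold the same count was 7 (2.22% of all genes), and at 4-fold it was 1, CEACAM1 (0.0902%). SCG2 met the 2-fold bound in siLong1 alone, as did 1.99% of genes, and 0 of the 10 met it in siLong2 alone, as did 1.9%. PAQR8 and NLRP4 met it in neither. In the libraries labelled siLong2 they were 2.44-fold and 4.64-fold above siControl, and 1.32-fold and 1.66-fold above mock.

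Against the spread of the control libraries, 8 genes had both siLong1 libraries above all 4 (26.4% of all genes) and 2, PAQR8 and NLRP4, had both below (26.8%). In the libraries labelled siLong2, 9 were above (25.5%) and 1, SCG2, was below (26.6%). Both siLong groups lay above for the 7 genes (11.7%). For the families and partners of the 10 genes counted below, which were tested, the background over all genes is as follows. In siLong1 against siControl 54.5% of genes were called (26.4% higher and 28.1% lower), and against mock 52% (26% and 26.1%). In siLong2 against siControl 52.7% were called (25.9% and 26.9%), and against mock 50.3% (25.2% and 25%). In siTotal1 against mock 40.9% were called (22.1% and 18.7%), and in siTotal2 against mock 26.7% (14.1% and 12.6%).

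**Figure D1:**
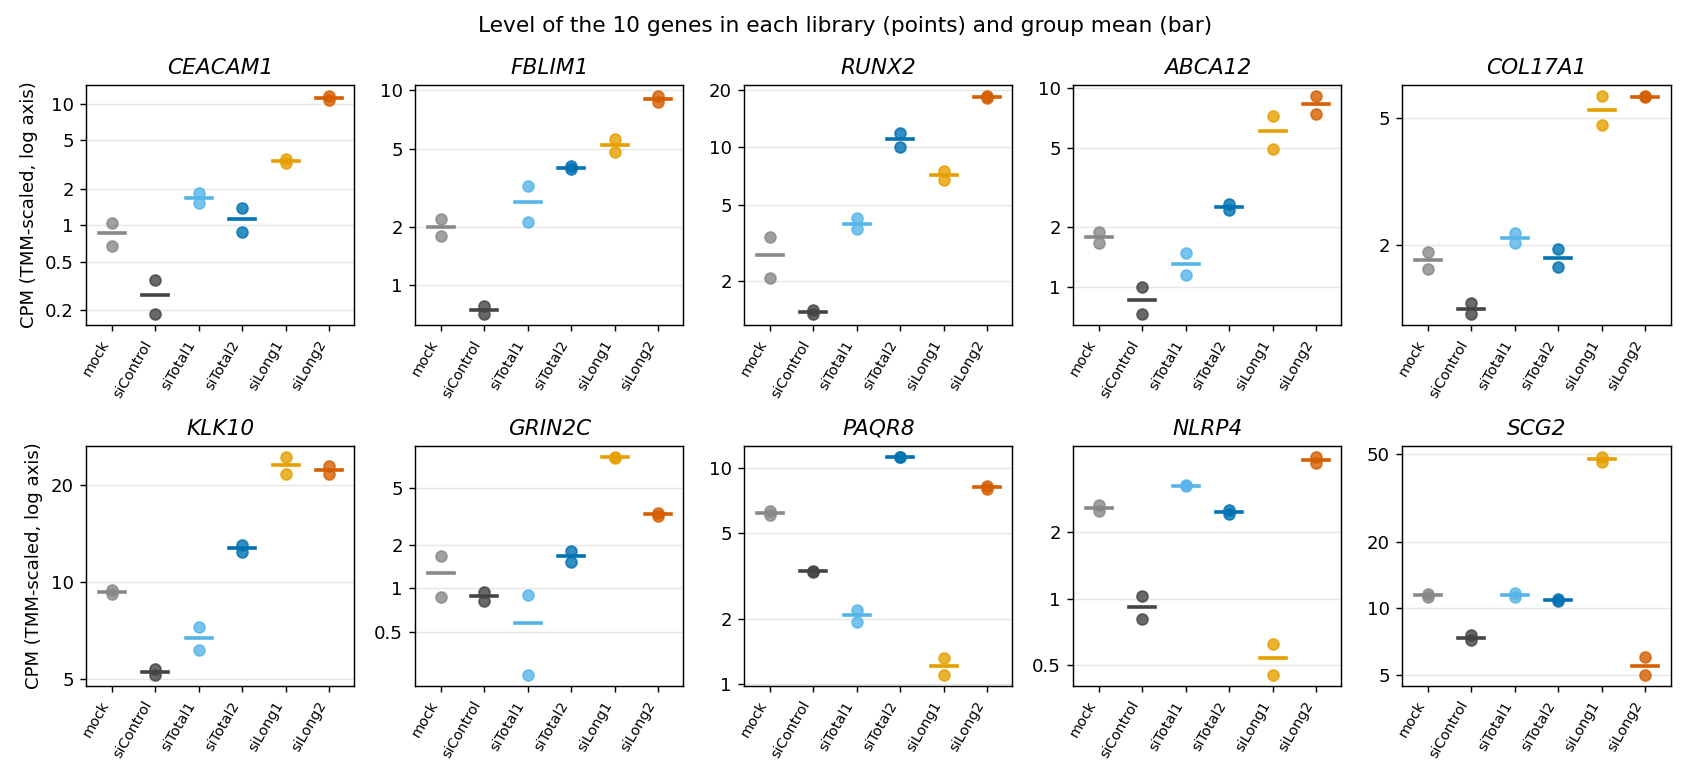
Level of each of the 10 genes in every library (CPM, log axis) by group, with 1 point per library. The 7 genes from CEACAM1 to GRIN2C have both siLong groups above every control library, SCG2 is high in siLong1 alone, and PAQR8 and NLRP4 are lowest in siLong1.

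CEACAM1, an immunoglobulin-type adhesion receptor at the cell surface (ENSG00000079385, chr19:42507304-42561234, minus strand, GENCODE 29 on GRCh38), had the largest differences from siControl. It measured 0.674 and 1.04 CPM in mock and 0.184 and 0.350 in siControl, the latter from 7 and 13 reads. It measured 3.53 and 3.28 in siLong1 and 11.7 and 10.8 in the libraries labelled siLong2. The groups did not overlap, and the libraries labelled siLong2 were 3.29-fold above siLong1. Against siControl the log2 difference was 3.66 (SE 0.28) for siLong1 and 5.38 (SE 0.23) for siLong2, and against mock 2.01 (SE 0.21) and 3.73 (SE 0.18). Reads may be shared with near-identical CEACAM genes, and LIPE-AS1 overlaps it by 185 exon bases on the other strand, where it stood at 1.19 to 2.32 CPM over the control and siLong groups. Whether strand was used in counting was not given. Of the other CEACAM genes only CEACAM19 passed the filter. It rose in siLong1 against mock by 2.29 (edgeR adjusted p = 1.2e-14), and in the libraries labelled siLong2 the difference was 0.05 from mock (adjusted p = 0.83) and -0.48 from siControl (adjusted p = 0.019).

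FBLIM1 encodes migfilin, which links filamin to cell-matrix adhesions (ENSG00000162458, chr1:15756607-15786594, plus strand). Its level was 2.18 and 1.78 CPM in mock, 0.710 and 0.781 in siControl, 5.65 and 4.85 in siLong1 and 8.69 and 9.37 in the libraries labelled siLong2. The order siLong2, siLong1, mock, siControl held with no overlap of libraries. The log2 difference from mock was 1.39 (SE 0.16) for siLong1 and 2.18 (SE 0.15) for siLong2. Of 19 other tested filamin and focal adhesion genes, 13 rose and 2 fell in siLong1 against mock. In the libraries labelled siLong2, 12 rose and 1 fell. Against siControl, 12 rose and 3 fell in siLong1, and 10 rose and 4 fell in siLong2. In siTotal1 against mock 11 rose and 3 fell, and in siTotal2 4 rose and 4 fell. FERMT1, a kindlin that activates integrins, was 0.22 (adjusted p = 9.3e-05) and 0.74 (adjusted p = 1.9e-16) above mock in siLong1 and siLong2.

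COL17A1 is the transmembrane collagen of the hemidesmosome, the junction that anchors epithelium to the basement membrane (ENSG00000065618, chr10:104031286-104085957, minus strand). It measured 1.69 and 1.90 CPM in mock, 1.31 and 1.21 in siControl, 4.77 and 5.88 in siLong1 and 5.82 and 5.89 in the libraries labelled siLong2. The siLong groups overlapped each other and lay above every control library. Its log2 difference from mock was 1.58 (SE 0.15) in siLong1 and 1.71 (SE 0.15) in siLong2. Of 8 other tested genes of the hemidesmosome and its laminin, 7 rose and 0 fell in siLong1 against mock, and 6 rose and 0 fell in siLong2. Against siControl, 6 rose and 2 fell in siLong1, and 6 rose and 1 fell in siLong2. In siTotal1 against mock 6 rose and 0 fell, and in siTotal2 4 rose and 0 fell. Among the laminin chains, LAMA3 rose against mock in siLong1 and siLong2 by 1.79 and 1.75 (adjusted p = 4.1e-20 and 9.1e-20). LAMB3 rose by 1.43 and 1.70 (adjusted p = 7.6e-24 and 4.5e-26). In siTotal1 and siTotal2 LAMA3 rose against mock by 0.53 and 0.91 (adjusted p = 6.4e-06 and 1.3e-10). LAMB3 rose there by 1.51 and 0.69 (adjusted p = 4.2e-24 and 1.3e-13). Against siControl, LAMB3 changed by -0.11 in siLong1 (adjusted p = 0.033) and 0.16 in siLong2 (adjusted p = 0.0020), with siControl at 140.6 CPM on average and mock at 48.5. The keratinocyte marker sum was 102 to 103 CPM in siLong1, 81.7 to 82.6 in siLong2, 71.8 to 75.1 in mock and 97.4 to 102 in siControl, with KRT1 at 0 reads in every group. Its part in the COL17A1, ABCA12 and KLK10 levels was not tested.

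RUNX2, the Runt-domain factor that drives bone-forming cells (ENSG00000124813, chr6:45328157-45664349, plus strand), was 2.08 and 3.39 CPM in mock and 1.42 and 1.35 in siControl. It was 6.78 and 7.52 in siLong1 and 18.5 and 18.1 in the libraries labelled siLong2. All 6 groups were apart, in the order siLong2, siTotal2, siLong1, siTotal1, mock, siControl. Against mock the log2 difference was 1.41 (SE 0.15) in siLong1 and 2.77 (SE 0.14) in siLong2. Of 6 tested family members and partners, 2 rose and 1 fell in siLong1 against mock, and 1 rose and 3 fell in siLong2. Against siControl it was 3 and 1 in siLong1 and 0 and 3 in siLong2. RUNX1 rose against mock by 0.41 (adjusted p = 5.7e-08) and 0.13 (adjusted p = 0.049), while in siLong2 it was -0.09 from siControl (adjusted p = 0.20). In siTotal1 and siTotal2 RUNX1 rose against mock by 0.67 and 0.45 (adjusted p = 1.4e-12 and 5.4e-08). CBFA2T3, a corepressor, fell against mock in siLong1 and siLong2 by 0.61 and 0.45 on the log2 scale (adjusted p = 9.4e-08 and 1.7e-05). In siTotal1 and siTotal2 its change was -0.52 and -0.28 (adjusted p = 3.0e-06 and 0.0070). Of 7 tested genes known as RUNX2 targets in the skeleton, 0 rose and 1 fell in siLong1 against mock, and 1 rose and 1 fell in siLong2. Against siControl it was 1 and 2, and 1 and 4. The gene that fell against mock was VEGFA, by 0.55 and 0.92 on the log2 scale (adjusted p = 5.6e-10 and 2.2e-15), and the one that rose was PHEX, a peptidase of bone mineralisation, by 1.40 (adjusted p = 2.0e-06). In siTotal1 and siTotal2 VEGFA changed from mock by -0.64 and -0.60 (adjusted p = 3.9e-11 and 4.2e-10). PHEX differed there by 0.05 and -0.11 (adjusted p = 0.90 and 0.82).

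ABCA12 loads lipid into the lamellar granules of keratinocytes (ENSG00000144452, chr2:214931542-215138428, minus strand). It stood at 1.67 and 1.88 CPM in mock, 0.999 and 0.727 in siControl, 4.94 and 7.20 in siLong1 and 9.11 and 7.39 in the libraries labelled siLong2. The duplicates of siLong1 lay farthest apart of all groups, and no siLong library overlapped a control. The log2 difference from mock was 1.79 (SE 0.18) in siLong1 and 2.22 (SE 0.17) in siLong2. Of 8 other tested ABCA transporters, 3 rose and 3 fell in siLong1 against mock, and 6 rose and 1 fell in siLong2. Against siControl it was 3 and 2, and 4 and 0. Each of these counts of rises includes ABCA9. It had 6 and 13 reads in siLong1, 30 and 29 in siLong2 and at most 4 in any other library. ABCA9 passed the filter on low counts only through siLong libraries, so nothing is read from its rises. ABCA1, the cholesterol exporter, rose against mock by 1.00 (adjusted p = 1.4e-06) in siLong1 and 1.69 (adjusted p = 4.2e-12) in siLong2. In siTotal1 and siTotal2 it rose against mock by 0.87 and 0.92 (adjusted p = 2.9e-05 and 2.6e-05). Of 8 tested epidermal barrier genes, 5 rose and 1 fell in siLong1 against mock, and 5 rose and 0 fell in siLong2. Against siControl it was 4 and 1, and 5 and 1. In siTotal1 against mock 2 rose and 4 fell, and in siTotal2 6 rose and 0 fell. These 8 include KLK5 and KLK7, which are counted again among the kallikrein genes below. Also among the 8 was the lipoxygenase ALOXE3, which rose by 0.50 (adjusted p = 7.3e-05) and 0.35 (adjusted p = 0.0040) against mock. In siTotal1 and siTotal2 ALOXE3 rose more against mock, by 0.76 and 0.62 (adjusted p = 6.5e-08 and 7.6e-06). Against siControl ALOXE3 changed by -1.07 and -1.21 (adjusted p = 1.1e-12 and 6.4e-14).

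KLK10 is a secreted member of the kallikrein-related protease family, whose genes lie side by side (ENSG00000129451, chr19:51012739-51020175, minus strand). Its level was 9.46 and 9.17 CPM in mock, 5.36 and 5.15 in siControl, 21.7 and 24.6 in siLong1 and 21.8 and 23.0 in the libraries labelled siLong2. The siLong groups overlapped and had nearly the same distance from mock, 1.31 (SE 0.08) and 1.26 (SE 0.08) on the log2 scale. Of 9 other tested kallikrein genes, 5 rose in siLong1 against mock and 1 rose in siLong2, with 0 lower in either. Among the 5 was KLK11, with 10 and 15 reads in siLong1 and under 10 in every other library. KLK11 passed the filter on low counts only through siLong1, so nothing is read from its rise. Against siControl, 4 of the 9 rose in siLong1 and 3 in siLong2. In siTotal1 against mock 0 rose and 3 fell, among them KLK11 at 0 reads, and in siTotal2 2 rose and 0 fell. Against mock, KLK5 rose by 2.48 in siLong1 (adjusted p = 4.8e-14) and was -0.38 in siLong2 (adjusted p = 0.22). KLK6 rose by 1.46 in siLong1 (adjusted p = 8.9e-23) and was 0.09 in siLong2 (adjusted p = 0.18). Against siControl both also rose in siLong2, KLK5 by 2.16 (adjusted p = 8.7e-06) and KLK6 by 0.86 (adjusted p = 1.0e-14). The siControl level of KLK5 rests on 6 and 7 reads, beside 49 and 45 in mock and 26 and 30 in siLong2. KLK7 rose in both groups against mock, by 1.40 (adjusted p = 6.4e-20) and 0.51 (adjusted p = 3.2e-08).

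**Figure D2:**
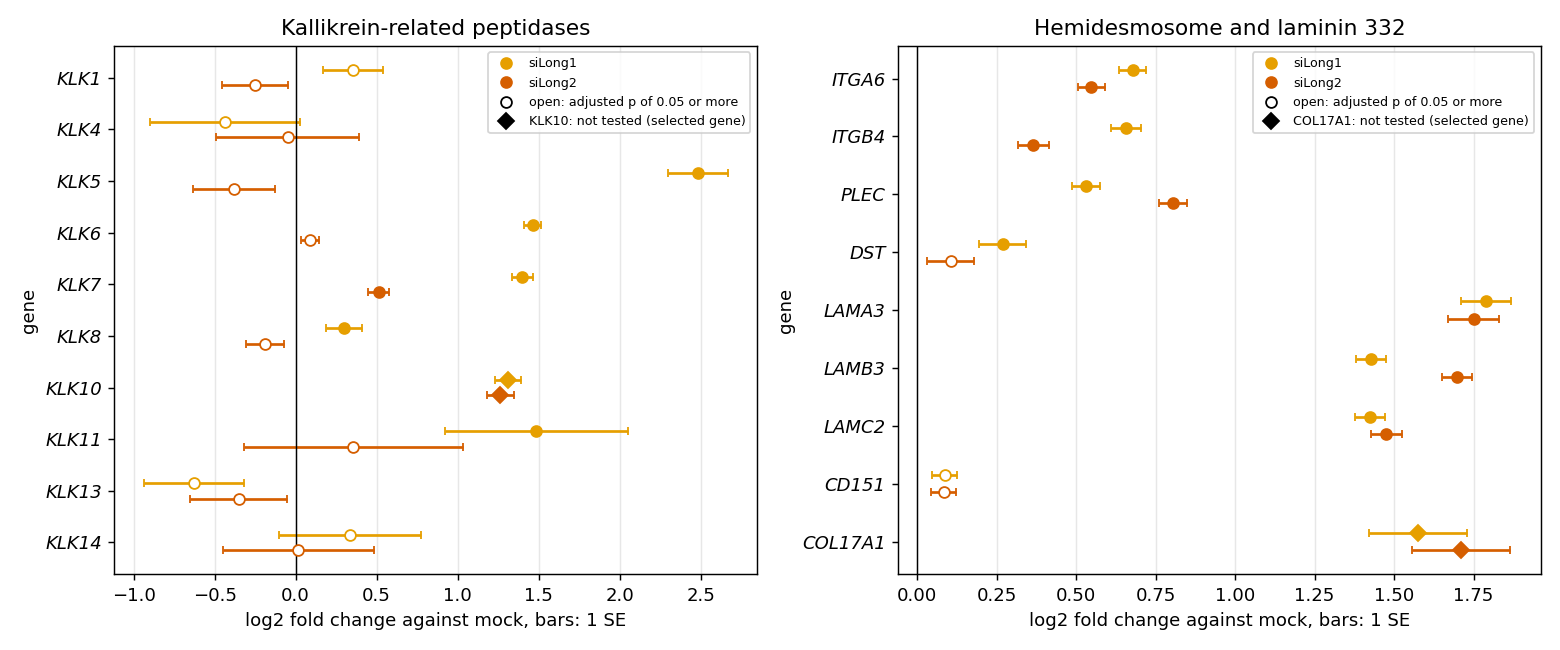
Log2 fold change from mock (bars, 1 SE) of tested kallikrein-related genes (left) and hemidesmosome and laminin genes (right) in siLong1 and siLong2, with open symbols for an adjusted p of 0.05 or more and diamonds for KLK10 and COL17A1, which were not tested. KLK5 stands at 2.48 in siLong1 and -0.38 in siLong2, and LAMA3 at 1.79 and 1.75. KLK11 passed the filter on low counts only through siLong1.

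GRIN2C, a regulatory subunit of the NMDA glutamate receptor (ENSG00000161509, chr17:74842023-74861504, minus strand), was the 1 gene of the 7 that was higher in siLong1 than in siLong2 with no overlap. It measured 1.69 and 0.867 CPM in mock, 0.815 and 0.943 in siControl, 8.02 and 8.21 in siLong1 and 3.34 and 3.17 in the libraries labelled siLong2. The log2 difference from mock was 2.63 (SE 0.25) and 1.32 (SE 0.29), and without mock replicate 2 the second was 0.95, below 2-fold. Of 8 other tested glutamate receptor genes, 2 rose and 1 fell in siLong1 against mock, and 3 rose and 1 fell in siLong2. Against siControl it was 4 and 2, and 5 and 0. GRIN1, the obligatory NMDA subunit, rose by 0.65 against mock in siLong1 (adjusted p = 1.9e-07). In siLong2 it was 0.11 above mock (adjusted p = 0.35) and rose by 0.82 against siControl (adjusted p = 3.0e-08). In siTotal1 and siTotal2 GRIN1 was 0.09 and 0.66 above mock (adjusted p = 0.49 and 6.7e-07). Summed neuronal and neuroendocrine markers were 71.0 to 77.4 CPM in the siLong groups and 63.5 to 73.2 in mock and siControl, nearly all from SYT1, with ELAVL4 and INSM1 at 0 reads in every group. Their part in the GRIN2C level was not tested.

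SCG2 is secretogranin II, a protein of secretory granules that gives rise to peptides (ENSG00000171951, chr2:223596940-223602503, minus strand). It was 11.2 and 11.7 CPM in mock and 7.17 and 7.54 in siControl. It was 46.0 and 48.7 in siLong1 and 6.01 and 4.98 in the libraries labelled siLong2, so siLong1 was above and siLong2 below every control library. The log2 difference from mock was 2.05 (SE 0.07) in siLong1 and -1.05 (SE 0.09) in siLong2, and siLong2 was 8.60-fold below siLong1. Of 3 other tested granin and prohormone genes, 2 rose in siLong1 and 1 rose and 1 fell in siLong2, both against mock and against siControl. CPE, the carboxypeptidase that trims prohormones, rose in both groups, by 0.55 (adjusted p = 1.1e-09) and 0.82 (adjusted p = 8.8e-14) against mock.

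PAQR8 is a membrane progestin receptor (ENSG00000170915, chr6:52361421-52407777, plus strand). It measured 6.03 and 6.33 CPM in mock, 3.34 and 3.31 in siControl, 1.10 and 1.32 in siLong1 and 8.27 and 7.98 in the libraries labelled siLong2. It was thus 5.07-fold below mock in siLong1 and 1.32-fold above it in siLong2, with no overlap. Across all 6 groups the order was siTotal2, siLong2, mock, siControl, siTotal1, siLong1, with every group apart from the next. Of 9 other tested PAQR receptors, 1 rose and 6 fell in siLong1 against mock, and 0 rose and 4 fell in siLong2. Against siControl it was 1 and 6, and 1 and 7. MMD fell by 0.68 and 1.01 on the log2 scale against mock (adjusted p = 8.2e-10 and 1.2e-13).

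NLRP4, a NOD-like receptor known from germ cells (ENSG00000160505, chr19:55836578-55881854, plus strand), was 2.50 and 2.65 CPM in mock and 1.02 and 0.808 in siControl. It was 0.621 and 0.450 in siLong1 and 4.40 and 4.13 in the libraries labelled siLong2. The log2 difference from mock was -2.26 (SE 0.22) in siLong1 and 0.73 (SE 0.15) in siLong2. NLRP11 overlaps it by 223 exon bases on the other strand and was 1.69 to 1.72 CPM in siLong1 and 1.31 to 1.93 in siLong2. Of 6 other tested NLRP genes, 0 rose and 2 fell in siLong1 against mock, and 4 rose and 0 fell in siLong2. Against siControl it was 0 and 2, and 3 and 0. NLRP5, among these 6 and the nearest tested gene after NLRP4 on the chromosome, went the same way as NLRP4 in the siLong groups alone. It was -1.48 from mock in siLong1 (adjusted p = 0.020) and 1.95 in siLong2 (adjusted p = 5.8e-06). The siLong1 value rests on 5 and 4 reads, beside 15 and 17 in mock and 56 and 41 in siLong2. In siTotal1 and siTotal2 NLRP5 changed from mock by -1.30 and -1.52 (adjusted p = 0.045 and 0.032). Those values rest on 8 and 2 and on 4 and 5 reads. NLRP4 differed there by 0.34 and -0.06 (adjusted p = 0.087 and 0.85). NLRP5 was also higher in siControl (0.473 and 0.593 CPM) than in mock (0.297 and 0.409), while NLRP4 was lower. Germ cell markers summed to 5.83 to 6.52 CPM in the siLong groups and 7.85 to 8.78 in mock and siControl, with BMP15, FIGLA and DAZL at 0 reads in every group, and their part in the NLRP4 level was not tested.

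**Figure D3:**
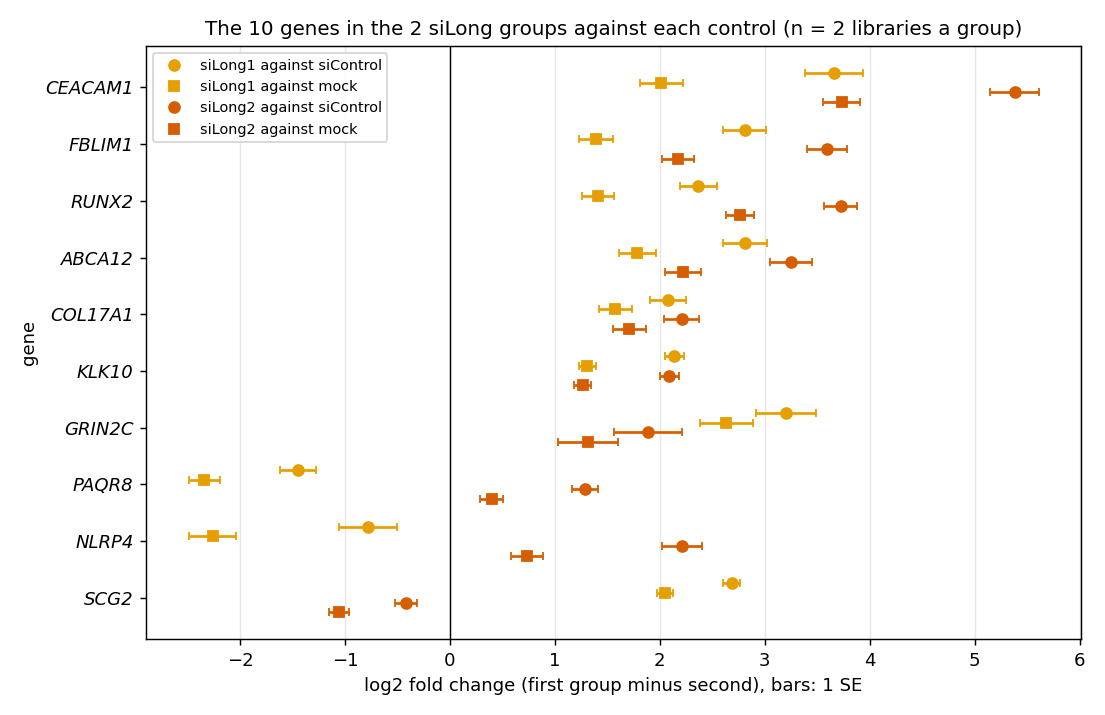
Log2 difference of each of the 10 genes in siLong1 and siLong2 from siControl and from mock, with bars of 1 SE. The signed difference from siControl lies to the right of that from mock for all 10 genes in both groups, and PAQR8, NLRP4 and SCG2 have opposite signs in the siLong groups.

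The choice of control moved every value. In both siLong groups, the signed log2 difference from siControl exceeded that from mock for 10 of 10 genes, since mock lay above siControl for all of them on average and in both libraries for 9 of 10 (34.6% of all genes). In siLong1 the median over the 10 genes was 2.53 against siControl and 1.49 against mock, and in siLong2 it was 2.21 and 1.51, beside medians of all tested genes within 0.02 of 0. siControl was the lowest of the 6 groups for 6 genes.

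Levels between genes can be set side by side per kilobase of exon. In siControl, SCG2 (2.71 CPM per kilobase) and KLK10 (1.36) were the most abundant and CEACAM1 (0.0484) the least. In siLong1 the order was led by SCG2 at 17.4 and KLK10 at 6.00, with NLRP4 last at 0.137. In the libraries labelled siLong2, KLK10 led at 5.81, followed by RUNX2 at 2.24, CEACAM1 at 2.03 and SCG2 at 2.02, with the libraries of CEACAM1 and SCG2 overlapping, and GRIN2C was last at 0.380.

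The rule that picked the genes did not use the siTotal groups, and these were tested against mock. The mock libraries are shared with the siLong differences from mock above. The calls are therefore not fully independent of the choice of the genes. In siTotal1 against mock, 2 of the 10 rose (CEACAM1, RUNX2), 3 fell (KLK10, GRIN2C, PAQR8) and 5 did not pass, where 40.9% of all genes were called (22.1% higher, 18.7% lower). Without mock replicate 1 the count of 5 was 3. In siTotal2 against mock, 4 rose (FBLIM1, RUNX2, KLK10, PAQR8), 0 fell and 6 did not pass, where 26.7% were called (14.1% higher, 12.6% lower). Above all 4 control libraries were 4 genes in siTotal1 (20.9% of all genes) and 5 in siTotal2 (18.8%), and below them 1 (18.5%) and 0 (17.6%). The share called in siTotal1 was near that of all genes. The median log2 difference over the 10 was 0.12 in siTotal1 and 0.45 in siTotal2, and over all genes 0.00 and 0.01.

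RUNX2 rose with both siTotal siRNAs. It measured 3.75 and 4.26 CPM in siTotal1 and 10.1 and 11.9 in siTotal2, all above the 2.08 and 3.39 of mock. The log2 change was 0.57 (SE 0.17, edgeR adjusted p = 0.0071) and 2.03 (SE 0.14, adjusted p = 2.9e-11). Without mock replicate 1 the siTotal1 change was 0.23 (adjusted p = 0.33) and without siTotal1 replicate 2 it was 0.47 (adjusted p = 0.082), so that call rests on single libraries. CEACAM1 was 1.53 and 1.85 CPM in siTotal1 and 0.886 and 1.38 in siTotal2, a change of 1.00 (SE 0.24, adjusted p = 7.4e-04) and a difference of 0.44 (SE 0.25, adjusted p = 0.22). The siTotal1 call was lost without mock replicate 1 (0.69, adjusted p = 0.053). FBLIM1 was 2.11 and 3.25 in siTotal1 and 4.07 and 3.93 in siTotal2, and rose in siTotal2 by 1.00 (SE 0.17, adjusted p = 1.7e-05). In siTotal1 it differed by 0.42 (SE 0.18, adjusted p = 0.057), and it passed without siTotal1 replicate 1 (0.67, adjusted p = 0.0063) or without mock replicate 1 (0.58, adjusted p = 0.047).

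PAQR8 changed in opposite directions. It was 1.94 and 2.21 CPM in siTotal1, below every control library, and 11.3 and 11.3 in siTotal2, above every one. The changes from mock were -1.57 (SE 0.13, adjusted p = 6.0e-12) and 0.87 (SE 0.10, adjusted p = 3.1e-08). KLK10 was 6.16 and 7.26 in siTotal1 and 13.05 and 12.46 in siTotal2, a change of -0.47 (SE 0.10, adjusted p = 1.4e-04) and a rise of 0.45 (SE 0.09, adjusted p = 1.4e-04). GRIN2C was 0.250 and 0.897 CPM in siTotal1, from 9 and 32 reads, and its change of -1.19 (SE 0.41, adjusted p = 0.031) was lost in 11 of 17 alternatives (range -2.38 to -0.57), among them the replicate block (adjusted p = 0.059) and DESeq2 (adjusted p = 0.055). In siTotal2 it was 1.52 and 1.81 CPM, 0.36 from mock (SE 0.32, adjusted p = 0.47), and it passed without mock replicate 1 (0.94, adjusted p = 0.038).

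ABCA12, COL17A1, NLRP4 and SCG2 passed against mock in neither siTotal group. SCG2 was 11.3 and 11.7 CPM in siTotal1 and 10.996 and 10.75 in siTotal2, with differences of 0.01 (SE 0.08, adjusted p = 0.94) and -0.07 (SE 0.08, adjusted p = 0.58). COL17A1 was 2.03 and 2.19 in siTotal1 and 1.94 and 1.71 in siTotal2, with differences of 0.24 (SE 0.18, adjusted p = 0.31) and 0.03 (SE 0.18, adjusted p = 0.94). ABCA12 was 1.47 and 1.15 in siTotal1 and 2.44 and 2.60 in siTotal2, differing by -0.43 (adjusted p = 0.14) and 0.52 (adjusted p = 0.055), and the second passed in 6 of 17 alternatives. NLRP4 was 3.28 and 3.22 in siTotal1 and 2.41 and 2.53 in siTotal2, differing by 0.34 (adjusted p = 0.087) and -0.06 (adjusted p = 0.85).

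Set against each other, the siTotal groups differed for 8 of the 10 genes, where 43.9% of all genes were called (20.6% higher, 23.3% lower). Higher in siTotal2 were FBLIM1, RUNX2, ABCA12, KLK10, GRIN2C and PAQR8, led by PAQR8 at 2.44 (SE 0.13, adjusted p = 9.8e-18), and lower were CEACAM1 and NLRP4. The count was 5 without siTotal1 replicate 1, and of 17 alternatives the NLRP4 call was lost in 16 and the CEACAM1 call in 9. The GRIN2C difference of 1.54 was lost without siTotal2 replicate 2 (1.42, adjusted p = 0.060), and was 0.91 without siTotal1 replicate 1 and 2.73 without siTotal1 replicate 2.

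**Figure D4:**
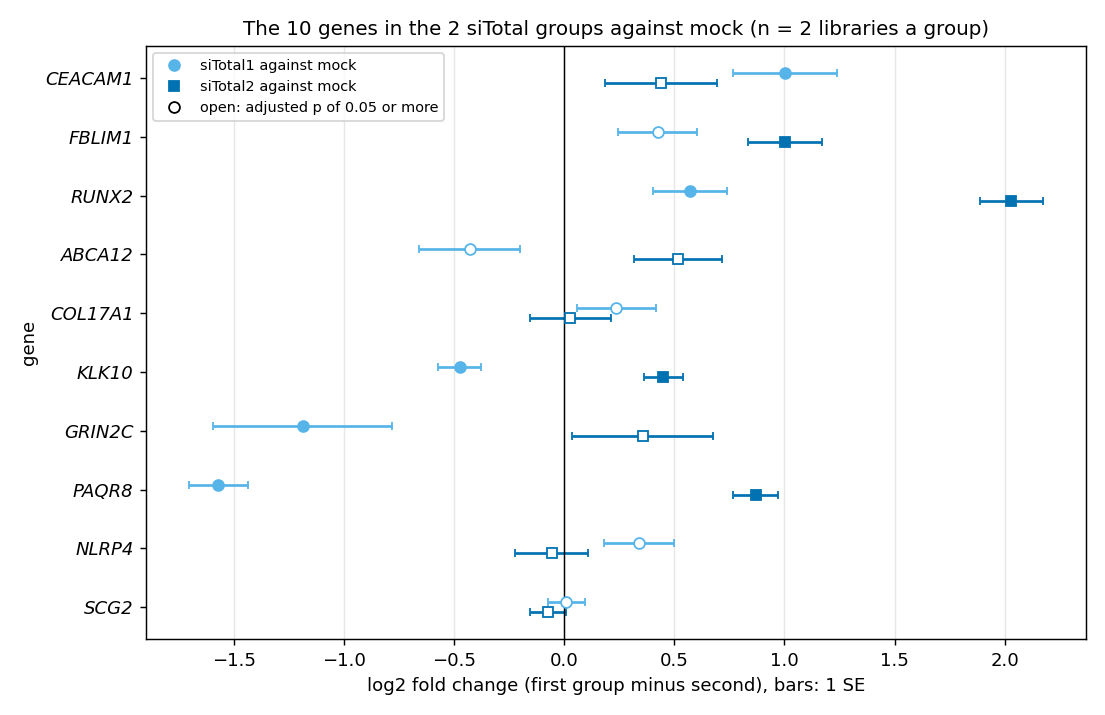
Log2 difference of each of the 10 genes from mock in siTotal1 and siTotal2, with bars of 1 SE and open symbols for an adjusted p of 0.05 or more. PAQR8 stands at -1.57 in siTotal1 and 0.87 in siTotal2, and RUNX2 at 0.57 and 2.03.

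Across the 12 libraries some of the genes ran together, given here as a description, since groups and libraries are shared. Pearson r of log2 CPM was 0.97 for ABCA12 with KLK10 and 0.94 for FBLIM1 with RUNX2, and among the 21 pairs of the 7 genes it ranged from 0.54 to 0.97. PAQR8 and NLRP4 each had r of -0.69 with SCG2. Among 12223 genes searched, the closest pattern was that of TLR3 for CEACAM1 (r 0.97), TERF2 for FBLIM1 (0.98), RABGAP1L for RUNX2 (0.97), POGLUT2 for ABCA12 (0.98) and ARRB1 for COL17A1 (0.98). It was MARVELD1 for KLK10 (0.98), NFXL1 for GRIN2C (0.98), RET for PAQR8 (0.98), FAM120A for NLRP4 (0.98) and TCEA3 for SCG2 (0.99). Of the 20 nearest tested neighbours along the chromosomes, 0 were called higher in all 4 comparisons of the siLong groups with the controls. The share of all genes called so was not counted, and nothing is read from the 0. By library position, 11.7% of all genes had both siLong groups above all 4 control libraries. FDXR, beside GRIN2C, was 0.95 and 0.74 above siControl in siLong1 and siLong2 (adjusted p = 6.4e-18 and 7.0e-15). From mock it was 0.29 and 0.09 (adjusted p = 3.8e-06 and 0.13). AP1S3, beside SCG2, was 1.78 and 1.26 above siControl in siLong1 and siLong2 (adjusted p = 2.9e-23 and 6.1e-19) and 0.22 and -0.30 from mock (adjusted p = 5.6e-04 and 1.2e-05).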

How the data were processed

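Reads of TruSeq stranded mRNA libraries were aligned with STAR 2.4.0f1 to hg19 and counted with featureCounts, per the submitters' processing notes. The deposited values are raw counts per Ensembl gene, and whether strand was used in counting is unstated. Groups were taken from the sample labels. Counts were tested with edgeR 4.0.16 (R 4.3.3; TMM, filterByExpr with a minimum count of 10 and total of 15, robust quasi-likelihood F-test, 6 group means, 6 residual degrees of freedom), with Benjamini-Hochberg adjustment over 17730 genes and a call at adjusted p under 0.05. The common biological coefficient of variation was 3.57%. Data were also simulated from gene proportions pooled over all libraries, with 50 genes per fold changed in siTotal1 alone, and siTotal1 was tested against mock (17328 genes). Of genes changed 1.2-fold 52% were recovered, of those changed 1.5-fold 94% and 2-fold 98%, and 16 of 188 calls were false. The changed genes were drawn from those above a bound on average level, so recovery of the rarest genes was not measured. Far fewer genes were changed than were called in the data. DESeq2 1.42.0, RLE scaling, no filter, a replicate block and leaving out each library were tried. Depth was 35604197 to 49746637 counts per library, so the lowest values, such as 7 reads, are the least precise. Gene positions, matched by Ensembl ID, are those of GENCODE 29 on GRCh38; RefSeq promoters are of GRCh38.p14. The 10 genes and the gene lists were chosen with earlier results of these data known. Besides the 10 genes and NFYA, genes were named by rule: up to 4 per list called the same way in both siLong groups, family neighbours, the 2 closest patterns and the nearest neighbours, of which some are printed.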

Additional observations from a re-analysis of the deposited data

Results flagged for a closer look

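The siRNAs of one target differed from each other for several genes. For siTotal2 against siTotal1, a difference that was tested, the log2 values were -0.56 for CEACAM1 (edgeR adjusted p = 0.047), 0.58 for FBLIM1 (0.0044), 1.46 for RUNX2 (2.1e-09) and 0.94 for ABCA12 (7.8e-04). They were 0.93 for KLK10 (4.1e-10), 1.54 for GRIN2C (0.0061), 2.44 for PAQR8 (9.8e-18) and -0.40 for NLRP4 (0.049). PAQR8 also lay on opposite sides of all 4 control libraries in the siTotal groups.

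In the siLong groups, 3 genes lay on opposite sides of all 4 control libraries. The log2 difference of the libraries labelled siLong2 from siLong1 was 2.74 for PAQR8, 2.99 for NLRP4 and -3.10 for SCG2. These differences were not tested, since the genes were picked for their levels in those groups.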

How the results depend on the processing

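No value of the 10 genes past the threshold changed sign under any alternative run, but some small ones that were not called did when 1 library was left out. COL17A1 in siTotal2 against mock ranged from -0.075 to 0.109, GRIN2C in the same comparison from -0.014 to 0.94, SCG2 in siTotal1 against mock from -0.028 to 0.037 (-0.0085 with mock and siTotal libraries alone), and KLK10 in siLong2 against siLong1, not tested, from -0.12 to 0.057. The siTotal1 against mock count of 5 called genes ranged from 3 to 5 when 1 library was left out, that of siTotal2 against mock (4) from 4 to 5, and that of siTotal2 against siTotal1 (8) from 5 to 7. The count of 7 genes at least 2-fold higher in both siLong groups ranged from 6 to 7, and was 1 (CEACAM1) at 4-fold. Genes called in siLong1 against mock ranged from 7613 to 9577, against siControl from 8200 to 9980, in siLong2 against mock from 7418 to 9257 and against siControl from 7937 to 9696. With the replicate block, 4, 4 and 8 of the 10 genes were called in the 3 siTotal comparisons; same-numbered libraries correlated by -0.0851 to 0.0991, so the numbers were not treated as pairs. DESeq2 called 4, 4 and 6. CEACAM1 and NLRP4 in siTotal2 against siTotal1 were lost under DESeq2 (adjusted p = 0.11 and 0.20). GRIN2C in that comparison was lost without siTotal2 replicate 2 (adjusted p = 0.060) and FBLIM1 without siTotal1 replicate 1 (adjusted p = 0.18). The causes were not tested. With 2 libraries a group and 7 to 1838 reads for a gene, small differences of the rarest genes were not detectable at this depth.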
